A study of Mus musculus with 8 samples.

Results

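Hair follicle keratins and regulators of skin appendages were followed in whole skin of p63 null mouse embryos, set against wild-type embryos. The set holds 10 genes: the inner root sheath keratins Krt25, Krt27, Krt71 and Krt73, trichohyalin (Tchh), the transcription factors Foxn1, Msx1 and Msx2, the ligand Eda and its receptor Edar. Every probe set that the platform annotation gave exactly 1 of these symbols was taken, which left 14 of 24965 probe sets (12 of the A chip, 2 of the B chip) for 9 of the genes. No probe set used here carried the symbol Edar, so the receptor is not analysed here. RNA of whole skin at E18.5, shortly before birth, was hybridised to 2 single-colour Affymetrix chips with different probe sets, each with 2 p63 null and 2 wild-type arrays, 8 arrays in all. The embryos of both genotypes came from crosses of p63 heterozygotes. The labels name no other allele or treatment, do not say which part of p63 the mutation removes, and give neither the strain nor the sex of the embryos. The titles on both chips number the skin samples 1 and 2 within a genotype. They do not say that a number is 1 embryo on both chips, or that a sample is 1 embryo, as it is taken to be below.

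The hair follicle forms from the embryonic epidermis through an exchange of signals with the dermis beneath it. Ectodysplasin, the product of Eda, is a ligand of the tumour necrosis factor family that binds Edar, and loss of either leaves mice without the earliest hair follicles. Inside the growing follicle, the inner root sheath moulds the hair shaft and carries its own type I keratins (Krt25, Krt27) and type II keratins (Krt71, Krt73), which pair to build filaments, together with trichohyalin, which is crosslinked between the filaments. Foxn1 (the gene lost in nude mice) and Msx2 act in the differentiation of hair cells. p63, encoded by Trp63, is a transcription factor of stratified epithelia.

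The 4 keratin genes lie in 2 keratin clusters, and the 250 bases before each start are shown because these 4 are the members called in the genotype comparison. The sequences are from RefSeq, build GRCm38.p6, all on the minus strand and written 5′ to 3′, at chr11:99322952-99323201 for Krt25, chr11:99351119-99351368 for Krt27, chr15:101743098-101743347 for Krt71 and chr15:101802361-101802610 for Krt73. Capitals mark the letters TATAAA and, in Krt71 and Krt73, also the runs of at least 9 bases that both windows share.
Krt25: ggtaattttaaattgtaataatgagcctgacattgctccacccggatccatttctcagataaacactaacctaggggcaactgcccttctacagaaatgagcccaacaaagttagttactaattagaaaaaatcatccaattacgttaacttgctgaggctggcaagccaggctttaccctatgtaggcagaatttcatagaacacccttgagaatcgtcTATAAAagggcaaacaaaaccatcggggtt
Krt27: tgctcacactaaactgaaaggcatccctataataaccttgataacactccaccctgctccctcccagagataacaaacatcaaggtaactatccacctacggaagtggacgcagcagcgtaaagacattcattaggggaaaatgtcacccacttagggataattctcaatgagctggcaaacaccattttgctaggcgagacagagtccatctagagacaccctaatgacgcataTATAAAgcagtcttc
Krt71: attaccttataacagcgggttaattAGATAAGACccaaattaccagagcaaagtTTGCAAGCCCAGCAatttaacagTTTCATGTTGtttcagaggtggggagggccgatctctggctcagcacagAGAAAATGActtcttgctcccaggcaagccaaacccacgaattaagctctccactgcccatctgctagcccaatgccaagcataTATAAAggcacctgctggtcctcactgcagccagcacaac
Krt73: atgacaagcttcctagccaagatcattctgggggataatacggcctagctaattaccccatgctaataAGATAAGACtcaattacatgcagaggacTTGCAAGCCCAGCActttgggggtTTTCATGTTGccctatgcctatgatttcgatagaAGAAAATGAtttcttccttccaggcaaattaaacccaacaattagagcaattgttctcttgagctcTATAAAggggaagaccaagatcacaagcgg
TATAAA, searched on both strands, was found once in each of these windows, with its first base 30 bases before the start in Krt25, 15 in Krt27, 40 in Krt71 and 30 in Krt73. None of the windows of Tchh, Foxn1, Msx1, Msx2, Eda and Edar held it, and 12.4% of all 32851 windows of this length did. The type II pair shared 4 runs, which were looked for after the sequences were seen. The longest, TTGCAAGCCCAGCA, starts 196 bases before the start in Krt71 and 154 in Krt73, and 2 of the 32851 windows hold it on either strand, these 2. The windows of Krt25 and Krt27 shared 0 such runs. Of the other letters searched on both strands, ACGC, the core bound by Foxn1, had 3 matches in Krt27, 2 in Msx2, 2 in Eda, 1 in Msx1 and 1 in Edar, against a match in 49.8% of all windows. CTTTGAA, a TCF/LEF sequence, had 2 matches in Tchh (4.46% of all windows hold it), and CTTTGAT had 1 in Edar (3.21%). A pair of CATG cores with 6 bases between them, as in p53 family elements, had 0 matches in the 10 windows and occurs in 0.49% of all. No match overlapped one of another motif. A match is a description of the letters, not of a bound site.

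The deposited values are MAS5 signals, a summary of the probes of each probe set on a linear scale without detection calls. The genotype check, Trp63, read 61.9 and 46.6 in null skin and 379.3 and 347.1 in wild-type skin on the A chip (log2 difference -2.49, SE 0.18, limma adjusted p = 1.13e-05), although where its probes lie relative to the mutation is not stated. Wild-type arrays carried both layers of skin, with mean signals of 6590 for loricrin (Lor) and 7583 for Col1a1, while the probe sets of the basal keratins Krt5 and Krt14 read at most 15.9 on every A-chip array of either genotype. The ratio of 3′ to 5′ beta-actin signal, a sign of RNA quality, lay between 1.27 and 1.36 in the 4 null arrays and between 1.5 and 1.98 in the 4 wild-type arrays, and its part in the results was not tested. The same ratio of Gapdh was 2.46 (A chip) and 2.66 (B chip) in wild-type array 2, against 1.25 to 1.55 on the other arrays. Null array 2 of each chip stood apart in the added CreX spike (3′ probe set 6420 on the A chip, against 3334 to 3837 on the other arrays, and 32512 on the B chip, against 16966 to 18942). Values without either array are given below.

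The 4 inner root sheath keratins fell in p63 null skin. In whole skin, fewer cells of a type and less RNA of a gene per cell cannot be told apart, here and in every comparison that follows. Krt25, a type I keratin of the inner root sheath, had signals of 4.3 and 5.2 in null skin and 288.7 and 308.9 in wild-type skin. The null values lie below the 20th percentile of all A-chip signals (12.9), and the groups are far apart. Its log2 difference, null minus wild type after that percentile was added to each signal as an offset, was -4.14 (SE 0.21, 95% interval -4.62 to -3.66, limma adjusted p = 1.06e-06). The offset sets much of this size, with a log2 difference of -2.61 with an offset at the 40th percentile and -4.98 with one at the 10th. Krt27, the second type I keratin of the set, read 32.2 and 18.6 in null skin and 195.5 and 231.4 in wild-type skin, again without overlap (-2.58, SE 0.24, adjusted p = 4.02e-05). Its probe set is of a type (suffix f) whose probes can match other members of a sequence family, so related type I keratins may add to both values.

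Both type II keratins fell as well. Krt71 read 70.8 and 94.8 in null skin and 290.2 and 296.9 in wild-type skin, a log2 difference of -1.69 (SE 0.18, 95% interval -2.10 to -1.28, limma adjusted p = 0.000107). Krt73, on the B chip, read 917.6 and 534.3 in null skin and 3399.1 and 3575.6 in wild-type skin (-2.23, SE 0.23, 95% interval -2.76 to -1.70, limma adjusted p = 0.000567). The 2 null embryos differed more than the wild-type embryos for Krt73 (725.95 ± 271 and 3487 ± 125, SD, n = 2 each), yet both lay far below them. Both null values of Krt71 lay above the level needed for testing (about 54.0 on the A chip), and both of Krt73 above that of the B chip (about 167). Krt25 and Krt27 passed that level only through their wild-type values. The level is a percentile of the chip's signals and not a detection limit, so whether null skin kept RNA of Krt71 and Krt73 was not tested. Without null array 2 the log2 differences were -4.18 for Krt25, -2.32 for Krt27, -1.87 for Krt71 and -1.87 for Krt73, and without wild-type array 2 they were -4.10, -2.47, -1.67 and -2.19 in the same order. Leaving out any 1 array kept all 4 calls, with adjusted p-values of at most 0.00190.

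**Figure D1:**
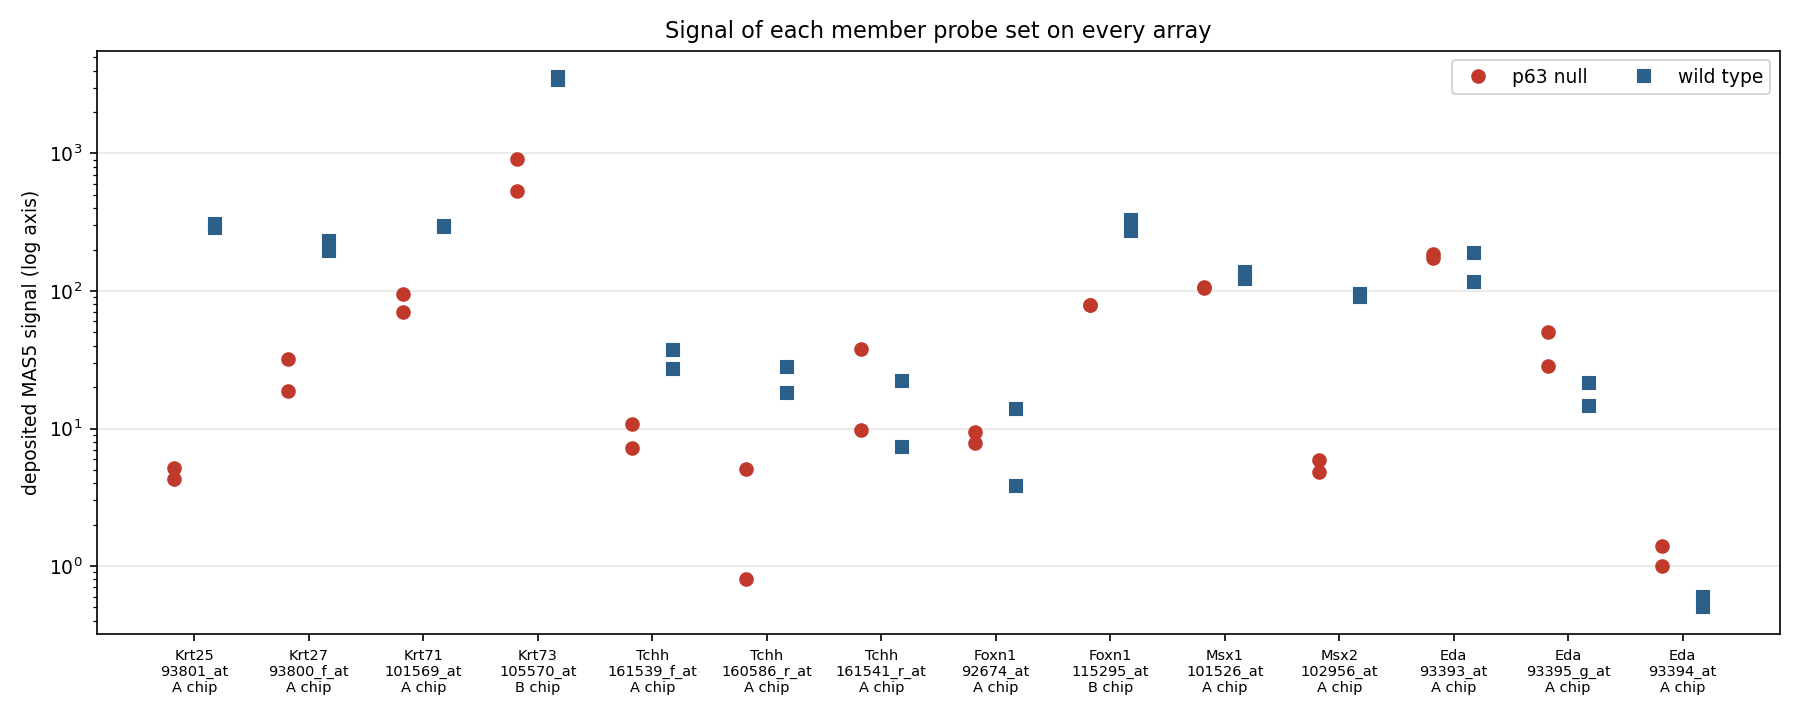
Deposited MAS5 signal (log axis) of the 14 member probe sets on each array, with circles for the 2 p63 null embryos and squares for the 2 wild-type embryos. The null circles of Krt25, at 4.3 and 5.2, and of Msx2, at 5.9 and 4.8, lie far below their wild-type squares, while those of Eda lie among or above theirs.

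The genes between these keratins on the chromosome were less clear. RefSeq (GRCm38.p6) places Krt26 between Krt25 and Krt27 on chromosome 11, and Krt72 and the pseudogene Krt74 between Krt71 and Krt73 on chromosome 15. Krt72, a further type II keratin of the inner root sheath named after its values were seen, read 47.8 and 45.0 in null skin and 96.7 and 73.0 in wild-type skin (-0.71, SE 0.23, limma adjusted p = 0.0301). This call was lost without null replicate 1 (adjusted p = 0.0570), null replicate 2 (0.0851) or wild-type replicate 1 (0.186), and without the filter on dim probe sets (0.0812). Krt26, on the B chip, read 141.4 and 87.3 in null skin and 214.8 and 66.6 in wild-type skin, so that the groups overlap, and it stayed below the level for testing.

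Trichohyalin, the matrix-like protein between inner root sheath filaments, has 3 probe sets on the A chip, all dim and below the level for testing. The first, of the f type, read 7.2 and 10.7 in null skin and 27.3 and 37.1 in wild-type skin, a log2 difference of -1.04. The second, of a type with relaxed probe rules (suffix r), read 5.1 and 0.8 in null skin and 18.1 and 27.9 in wild-type skin (-1.18). Both have their null values below their wild-type values, and the offset sets the sizes (-1.42 and -1.86 with the 10th percentile, -0.46 and -0.44 with the 40th). The third, also of the r type, read 9.8 and 37.8 in null skin and 7.3 and 22.0 in wild-type skin (0.35), where the embryos of each genotype spread more widely than the genotypes differ. With no filter on dim probe sets, limma gave adjusted p-values of 0.0219, 0.0150 and 0.616 for the 3 in this order.

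Of the transcription factors, Msx2 and, on the B chip, Foxn1 had null values far below their wild-type values, and Msx1 did not pass the test. Msx2, a homeobox factor of hair shaft differentiation, read 5.9 and 4.8 in null skin and 95.6 and 90.1 in wild-type skin, with no overlap and little spread within a genotype (5.35 ± 0.778 and 92.85 ± 3.89, SD, n = 2 each). Its mean over the 4 arrays lay below the level for testing. Its log2 difference was -2.53, with -1.33 for the 40th percentile offset and -3.25 for the 10th, and its limma adjusted p was 0.00109 when no filter was applied. Msx1, the related homeobox factor that dermis and other mesenchyme also express, read 107.4 and 104.8 in null skin and 137.0 and 121.8 in wild-type skin. Its log2 difference of -0.26 (SE 0.18, 95% interval -0.66 to 0.15, limma adjusted p = 0.271) did not pass, and the interval still holds a decrease of 0.66 on the log2 scale. Whether Msx1 and Msx2 differ in their response was not tested.

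Foxn1, the forkhead factor needed for hair keratin production, was read by 2 probe sets, of which that on the A chip was too dim in wild-type skin to show a fall. On the B chip it read 79.2 and 78.8 in null skin and 271.7 and 329.2 in wild-type skin, a log2 difference of -1.41. This probe set lay just below the level for testing (at the 39.3 percentile of mean log2 signal, with the line at the 40th), and with no filter its limma adjusted p was 0.0213. With the offset at the 40th percentile it was tested and fell (-0.92, limma adjusted p = 0.00600). The A-chip probe set read 9.5 and 7.8 in null skin and 13.9 and 3.8 in wild-type skin, near the 20th percentile of that chip's signals (12.9) or below it, and the groups overlap (log2 difference 0.03).

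The ligand Eda passed the test in none of its 3 probe sets, with or without the filter (limma). Its brightest probe set read 172.4 and 185.4 in null skin and 190.1 and 116.8 in wild-type skin, with both null values inside the wild-type range, and a log2 difference of 0.24 (SE 0.22, 95% interval -0.25 to 0.73, limma adjusted p = 0.400). The sign rests on 1 array, with a log2 difference of -0.083 without wild-type replicate 2. A second probe set, of a type that shares probes with another of the same gene (suffix g), read 50.2 and 28.3 in null skin and 14.7 and 21.3 in wild-type skin. The null values were the higher ones, but the probe set was below the level for testing and had an adjusted p of 0.129 in limma with no filter. The third read between 0.5 and 1.4 on all 4 arrays, next to the lowest values of the chip, and has no usable level.

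In all, 5 of the 12 A-chip probe sets and 1 of the 2 B-chip probe sets passed the level for testing. By limma, 3 of these 5 fell and 0 rose, where 22.2% of all tested A-chip probe sets fell and 22.1% rose, and the 1 on the B chip fell, where 14.9% fell and 14.5% rose (either way, 44.3% of the A-chip and 29.4% of the B-chip probe sets were called). Because the filter uses the mean of both genotypes, probe sets present in 1 genotype alone can be kept or dropped by it. With no filter, 6 of the 12 A-chip probe sets fell and 0 rose (all probe sets: 12.3% and 11.9%), and 2 of 2 on the B chip fell and 0 rose (7.30% and 6.60%). The 6 were Krt25, Krt27, Krt71, Msx2 and 2 of Tchh, and the 2 were Krt73 and Foxn1.

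**Figure D2:**
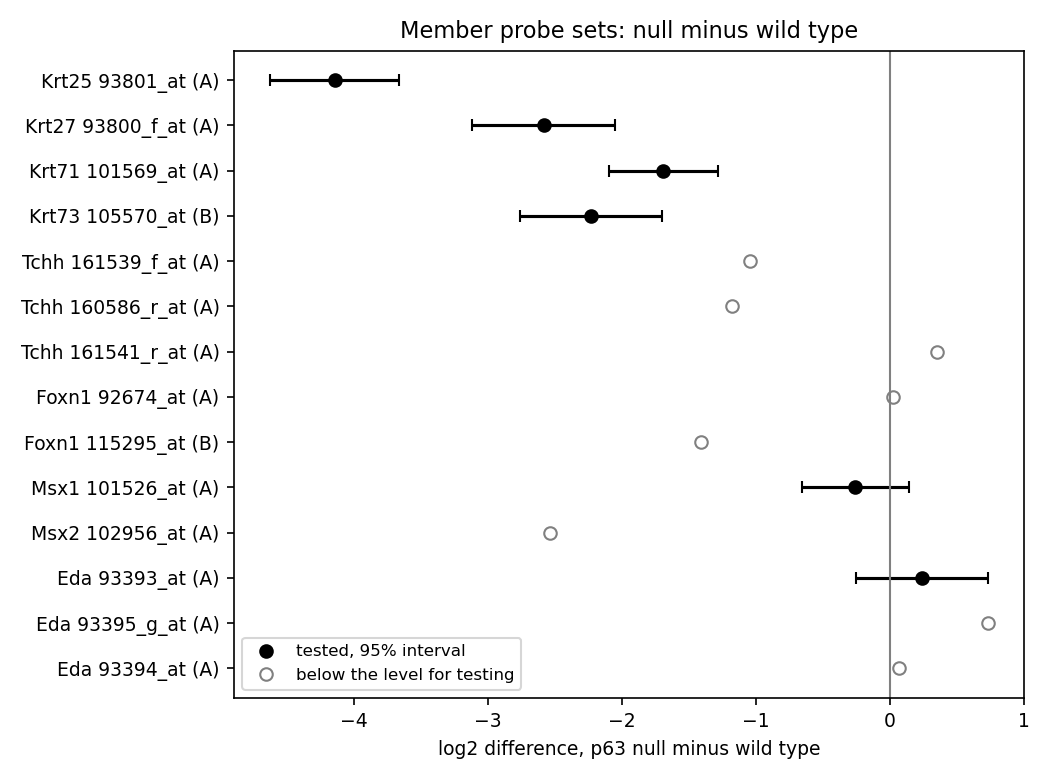
Log2 difference (p63 null minus wild type, signal plus offset) of each member probe set, with the chip in brackets. Filled points carry the 95% interval of the limma fit and open points lay below the level for testing. The 4 keratins sit between -4.14 and -1.69 with intervals clear of 0, while those of Msx1 and Eda cross 0.

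Other structural genes of the hair shaft and root sheath were read from a list of 45 genes, each gene by its brightest tested probe set. On the A chip 9 of 17 tested genes fell and 1 rose by limma, with a median log2 difference of -0.57, where 22.8% of all genes tested there fell, 22.4% rose and their median was 0.01. Without the 3 members among them, 6 of 14 fell and 1 rose, with a median of -0.19. Krt17, a keratin of the outer root sheath and of early follicle buds, read 143.5 and 140.7 in null skin and 1068.6 and 1325.2 in wild-type skin (-2.96, limma adjusted p = 7.21e-07). Lgals7, a galectin of stratified epithelium and hence not particular to the follicle, fell by 3.52 on the log2 scale. Krt35, a keratin of the hair shaft named after its values were seen, fell in both of its tested probe sets. The log2 differences were -1.27 in the brighter one, of the r type, and -3.16 in the dimmer one, of the f type. Other keratins of the list, Krt32, Krt33b, Krt81, Krt84 and Krt86, were tested and not called (log2 differences -0.24, -0.14, -0.10, 0.04 and 0.35). Krt36, a hair keratin read by a probe set of the r type, rose, with 132.8 and 101.9 in null skin and 56.3 and 45.1 in wild-type skin (1.03, limma adjusted p = 0.00503). It passed the level for testing only through null skin. Of the 9 genes that fell, Krt25, Krt27 and Krt72 passed that level only through wild-type skin and so could be tested only if they differed. On the B chip 1 of 4 tested genes fell, Krt73, and 1 rose, where 16.0% of all genes tested there fell, 16.1% rose and their median was 0.04. The gene that rose, the keratin-associated protein Krtap16-1, had a log2 difference of 0.66 (limma adjusted p = 0.0289), a call lost without null replicate 2 (0.0580), wild-type replicate 1 (0.165) or wild-type replicate 2 (0.0926), and with no filter (0.0580).

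Of the transcription factors of appendages, 7 of 10 tested on the A chip (Msx1 among the other 3) and 6 of 7 tested on the B chip fell by limma, and 0 rose, with median log2 differences of -1.12 and -1.23, where 22.8% and 16.0% of all genes tested on the 2 chips fell. Of these, 4 on the A chip (Dlx3, Gata3, Gli1 and Rora) and 1 on the B chip (Gata3) passed the level for testing only through their wild-type values and so could be tested only if they differed. Dlx3, a homeobox factor of epidermis and hair, read 11.4 and 27.9 in null skin and 404.9 and 362.4 in wild-type skin (-3.65, limma adjusted p = 8.24e-06). Gata3, needed for the inner root sheath lineage, fell on both chips, with log2 differences of -3.38 (A chip) and -2.19 (B chip). Lef1, the partner of beta-catenin in follicle initiation, fell by both chips too, with log2 differences of -1.03 (A chip) and -1.23 (B chip, limma adjusted p = 0.00140 and 0.00569). Rora, a nuclear receptor, also fell on both chips (-2.0 and -2.83 for A and B). So did the hedgehog effector Gli1 on the A chip (-2.10) and Trps1, a zinc finger factor of the follicle, on the B chip (-1.30). Hoxc13, an upstream factor of Foxn1, had no probe set with its symbol used here.

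The calls of the ectodysplasin pathway list went both ways on the A chip. There 2 of 10 tested genes fell and 2 rose by limma (median log2 difference -0.39). Of all genes tested there 22.8% fell and 22.4% rose, with a median of 0.01. On the B chip 1 of 6 fell and 0 rose (median -0.58), where 16.0% of all genes fell, 16.1% rose and their median was 0.04. The A-chip shares lie near those of all genes, while both list medians lie below those of all genes. Traf6, the adaptor that links Edar signalling to the kinases upstream of NF-kappaB, read 133.9 and 138.3 in null skin and 418.8 and 456.1 in wild-type skin (-1.59, SE 0.14, limma adjusted p = 3.68e-05), and its second tested probe set fell by 1.04. Rela, an NF-kappaB subunit, rose by 0.68 (adjusted p = 0.00238 in limma). The calls of Tab2 (-0.34, adjusted p = 0.0424) and of the NF-kappaB inhibitor Nfkbia (0.39, adjusted p = 0.0279) were each lost without null replicate 1 (0.112 and 0.0766), wild-type replicate 1 (0.180 and 0.0749) or wild-type replicate 2 (0.152 and 0.151), and with no variance trend (0.0995 and 0.0601). That of Tab2 was lost with no filter (0.0722) or median centring (0.0640) too. Sostdc1, an inhibitor of BMP and Wnt signalling at the follicle bud, fell on the B chip, with 1798.3 and 1720.8 in null skin and 5084.1 and 4889.4 in wild-type skin (-1.47, limma adjusted p = 0.000158). Edaradd, the adaptor that binds Edar directly, read 108.7 and 44.3 in null skin and 98.2 and 139.1 in wild-type skin, overlapping and below the level for testing.

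Genes of the dermal condensate and papilla, the mesenchyme of the follicle, went both ways. On the A chip 5 of 16 tested genes fell and 3 rose by limma, with a median log2 difference of -0.20, where 22.8% of all genes tested there fell and 22.4% rose, so that the counts lie near those of all genes. Cxcr4, Bmp4, Prom1 and Prrx1 fell (log2 differences -1.59, -1.05, -0.76 and -0.62), and the calls of Prom1 and Prrx1 were lost on leaving out 1 array (adjusted p = 0.0556 without wild-type replicate 2 for Prom1, and 0.116 without null replicate 2 and 0.201 without wild-type replicate 1 for Prrx1, which was also not called with no filter, 0.0844). Vcan, a matrix proteoglycan of the papilla and of general dermis, rose by 0.79, Crabp1 by 0.75 and Pdgfra, a receptor on dermal fibroblasts at large, by 0.58, the last not called without wild-type replicate 2 (adjusted p = 0.0656). Prrx1 was also tested on the B chip by a brighter probe set and was not called there (-0.37, limma adjusted p = 0.112). The other gene of the list tested on the B chip, the Wnt inhibitor Wif1, fell, with 135.1 and 185.2 in null skin and 2089.5 and 2047.8 in wild-type skin (-3.32, limma adjusted p = 2.46e-05). Cxcr4 and Wif1 passed the level for testing only through wild-type skin.

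**Figure D3:**
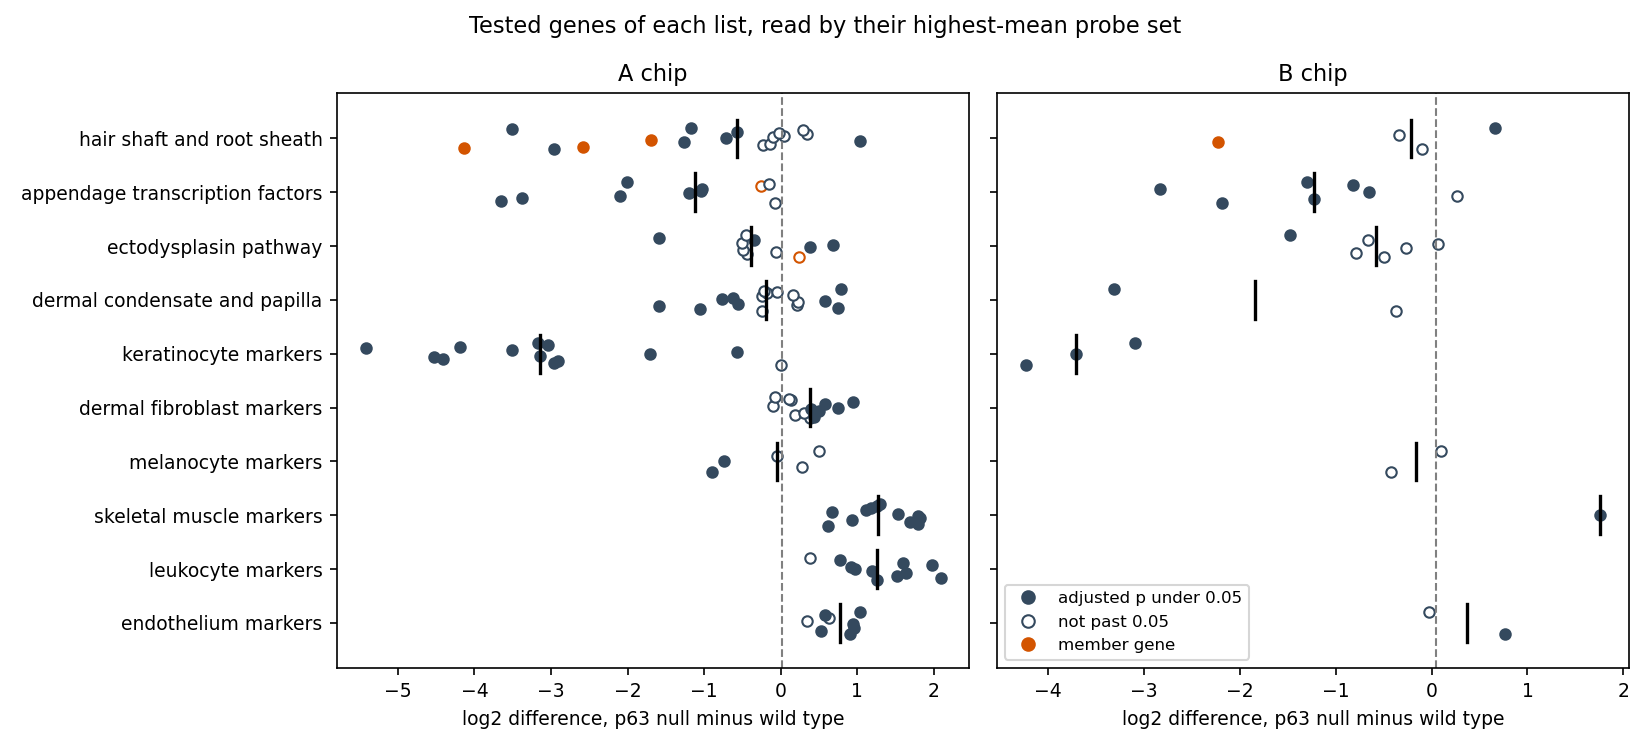
Log2 difference (p63 null minus wild type) of each tested gene of the 4 follicle lists and of 6 marker lists on the A chip and the B chip. Filled points passed an adjusted p of 0.05, orange marks member genes, black bars are list medians and the dashed line is the median of all tested genes. Keratinocyte markers lie left of most follicle genes, with a median of -3.14 on the A chip, and muscle and leukocyte markers lie to the right.

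Signals of markers of several cell types differed between the genotypes beside these results. The summed signal of keratinocyte markers on the A chip (17 of 19 genes with a probe set) was 4819 and 5504 in null skin and 45018 and 43367 in wild-type skin, and 12 of 13 tested genes fell and 0 rose. The keratinocyte marker that was not called, E-cadherin (Cdh1), read 183.5 and 222.9 in null skin and 242.2 and 166.3 in wild-type skin. On the B chip the sum over 3 genes was 1896 and 1745 in null skin and 21676 and 24076 in wild-type skin. Skeletal muscle markers rose in 12 of 12 tested cases on the A chip, leukocyte markers in 10 of 11, endothelial markers in 6 of 8 and dermal fibroblast markers in 6 of 13, and 0 of these fell. Of all genes tested on the A chip, 22.8% fell and 22.4% rose. The keratinocyte markers Ivl (A chip) and Dsc3 (B chip) passed the level for testing only through wild-type skin, and the leukocyte marker Ptprc only through null skin. The summed muscle signal was 24061 and 27883 in null skin and 12116 and 11635 in wild-type skin, and the fibroblast sum was 64667 and 76952 in null skin and 56632 and 54050 in wild-type skin. The leukocyte sum was 10513 and 11311 in null skin and 4396 and 4122 in wild-type skin. Markers of melanocytes, which also reside in follicles, fell in 2 of 5 tested cases on the A chip, where 22.8% of all genes fell. The median log2 difference of these markers was -0.05. Dct and Pmel fell (-0.90 and -0.74), while Tyrp1 and Kit were higher in null skin (0.50 and 0.28) and Sox10 differed little (-0.05), all 3 not called. On the B chip 0 of 2 tested melanocyte markers fell and 0 rose. Of the bone and cartilage list, the 1 gene tested on the A chip did not pass, and the 1 tested on the B chip, Sox9, which is also in the list of appendage transcription factors, fell (-0.82, limma adjusted p = 0.00958). The part of the other cell types in the members' differences was not tested.

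For the 4 keratins, Msx2, the B-chip probe set of Foxn1 and the first 2 Tchh probe sets, all values stayed below 0 under every offset, normalization, variance model, block and left-out array that was run. The third Tchh probe set, the A-chip Foxn1 probe set and the brightest Eda probe set crossed 0 when single arrays were left out, and the A-chip Foxn1 probe set also with quantile normalization (-0.063). For Krt73, Msx1, the third Tchh probe set, the A-chip Foxn1 probe set and the brightest Eda probe set, leaving out an array moved the value further than another offset did. Krt73 ranged from -2.59 to -1.87 over left-out arrays and from -2.28 to -2.07 over offsets.

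**Figure D4:**
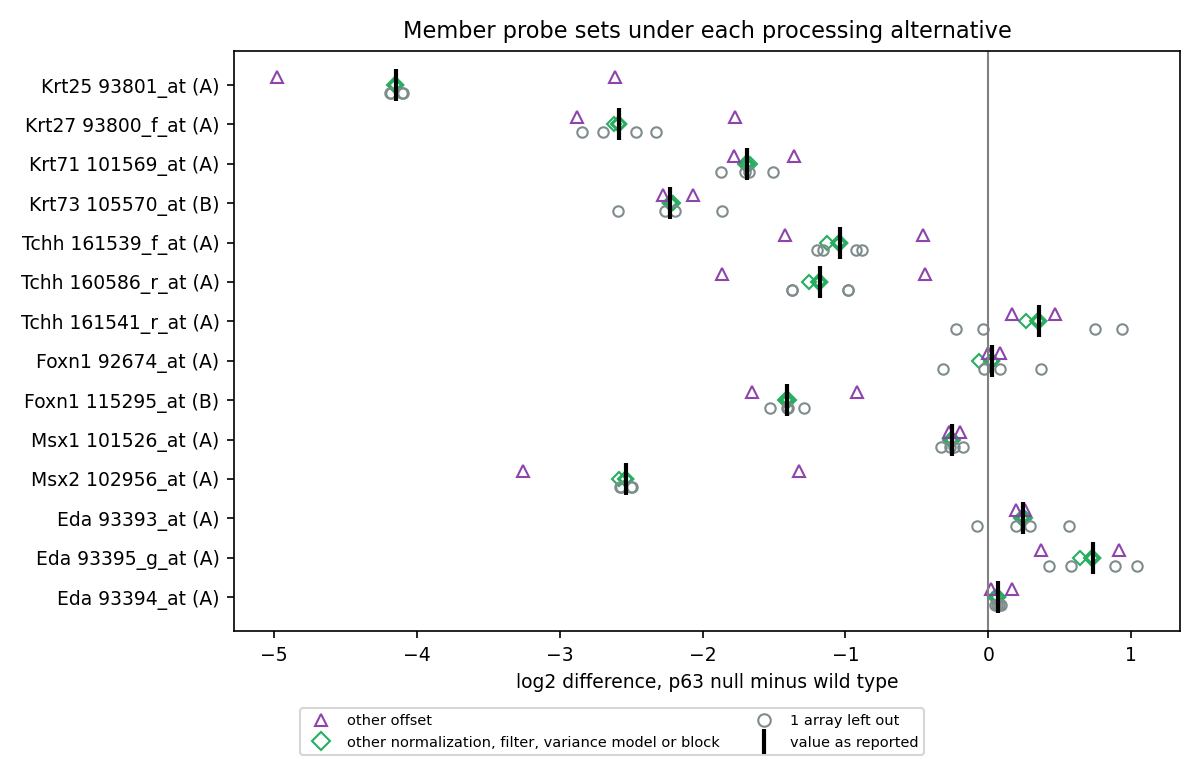
Log2 difference (p63 null minus wild type) of each member probe set under every alternative. Black bars are the values as reported, triangles other offsets, diamonds other normalizations, filters, variance models or the block, and circles the fits with 1 array left out. For Krt25 the triangles lie at -4.98 and -2.61, while its circles lie between -4.19 and -4.10.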

How the data were processed

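Whole-skin RNA of 2 p63 null and 2 wild-type embryos was read by each chip, and samples were grouped by title. Per the labels' protocols, TriZol extraction was followed by an RNeasy step, and the label was biotin. The submitters' processing notes name MAS5, with no version, for the deposited intensities, which are linear. Their 2% trimmed means (250.1 to 250.2 for the A chip, 500.1 for the B chip) show that they had been scaled. Detection calls, the scanner software and the genome build behind the platform annotation are not used here. The number of arrays limits the precision, with 2 embryos a genotype. The p-values rest on a variance that limma draws from the arrays of a probe set and from all tested probe sets of the chip.

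From the deposited intensities, each array was brought to a common 2% trimmed mean, the chip's 20th percentile was added (12.9 for the A chip, 54.3 for the B chip) and log2 was taken. Control probe sets, 66 a chip, did not enter the tests. Probe sets whose mean log2 exceeded the 40th percentile were tested, 7453 for the A chip and 7446 for the B chip. Each chip was fitted alone with limma 3.58.1 in R 4.3.3 (lmFit, eBayes with an intensity trend, two-sided). Benjamini-Hochberg adjustment ran over all tested probe sets of a chip, with a threshold of 0.05. SD is over the deposited signals of 2 embryos. The fit was also run on simulated log2 values with normal noise and known differences. That run did not model the offset or the filter, so it says nothing about dim probe sets.

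Symbols came from the platform annotation: 10855 A-chip and 10603 B-chip probe sets have 1 symbol, 396 and 178 have several, and 1237 and 1696 have none. In gene lists the tested probe set with the highest mean stood for a gene. Named were all members, Trp63, and up to 4 called genes per list, chip and direction with the largest differences, besides Edaradd, Traf6, Hoxc13 and Lef1, the brightest marker genes, and the 2 probe sets most like each tested member. The members and lists were chosen with earlier results of these data known. Alternatives were other offsets, filters, normalizations and variance models, the replicate number as a block, the mean over a gene's probe sets and leaving out each array.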

Additional observations from a re-analysis of the deposited data

How the results depend on the processing

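The 3 member probe sets that fell on the A chip became 6 when unfiltered and 1 under a 60th percentile filter, where 12 and 2 were tested. The 1 on the B chip became 2 with no filter and with the offset at the 40th percentile, both of which let Foxn1 be tested. Krt25 was not tested with the offset at the 10th percentile, nor Krt25 and Krt27 with the filter at the 60th. Leaving out single arrays kept 3 (A) and 1 (B) that fell and 0 that rose. Over left-out arrays the brightest Eda probe set gave log2 differences of -0.083 (without wild-type replicate 2, adjusted p = 0.819) to 0.56.

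Among the lists, with no filter 11 of 21 transcription factors fell on the A chip, against 7 of 10 with it. Of the structural genes, 2 of 10 fell and 0 rose on the B chip, and 2 of 29 rose on the A chip. Without the filter 12.3% of all A-chip probe sets fell and 11.9% rose, and 7.30% and 6.60% of those on the B chip. With the filter at the 60th percentile fewer genes were tested. On the A chip 1 of 2 transcription factors, 2 of 10 condensate genes and 3 of 7 structural genes then fell, and 0 structural genes rose. On the B chip 2 of 4 ectodysplasin pathway genes fell under that filter. With the offset at the 40th percentile 2 of 5 structural genes fell on the B chip. In the ectodysplasin pathway 1 gene fell on the A chip with median centring, 1 rose there and 2 fell on the B chip with no variance trend, and 3 fell on the B chip when a gene was read by the mean over its probe sets. Leaving out 1 array gave 1 to 4 ectodysplasin pathway genes that fell and 1 to 2 that rose (A chip), 1 to 3 that fell (B chip), 1 to 2 structural genes that rose (A chip) and 0 to 1 (B chip), and 1 to 2 condensate genes that fell on the B chip. A genotype left with 1 array was assumed to vary like the other. The cause was not tested where none is given.

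The replicate numbers share no stated source across genotypes, and deviations of equally numbered arrays correlated at 0.04 (A chip) and -0.05 (B chip). The numbers were therefore not taken to pair the arrays. With the replicate block, 3 (A) and 1 (B) member probe sets fell, no other member was called, and 3 ectodysplasin pathway genes fell on the B chip, in place of 1. The absence of detection calls limits what can be said of signals near the offset.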

Other observations

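The tested probe sets of other genes most like each keratin were found by the root mean square difference of log2 values, each taken from its own mean, over the 4 arrays of a chip. Those nearest to Krt25 were the plakophilins Pkp1 and Pkp3, desmosomal plaque proteins, with differences of 0.06 and 0.09. For Krt71 they were Krt10, the suprabasal epidermal keratin (0.04), and Arcn1 (0.07). For Krt27 they were Lepr (0.05) and Tmem45a (0.13), and for Krt73 Trim59 (0.07) and L1cam (0.08). For Msx1 they were Csnk1d (0.01) and Pmm1 (0.02), and for Eda Agap1 (0.01) and Hs1bp3 (0.02). With 4 arrays in 2 genotypes, likeness mostly reflects a genotype difference of equal size.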
